A study of Rattus norvegicus with 42 samples.

Results

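Receptors for neuropeptides were examined in the hippocampus of neonatal rats after a single dose of an anti-seizure medication. The members were taken by gene symbol and comprised Gpr83, the somatostatin receptors Sstr1, Sstr2, Sstr3 and Sstr4, the neuropeptide Y receptors Npy1r and Npy2r, the opioid receptors Oprk1 and Oprm1, and the receptor Vipr1 of vasoactive intestinal peptide. All 10 symbols were present among the 14304 of the count table, on 19 of its 15516 transcripts. Male Sprague Dawley pups were injected once intraperitoneally on postnatal day 7. The VEH group received saline, the PB group 75 mg/kg of phenobarbital and the LEV group 200 mg/kg of levetiracetam, both anti-seizure medications, and hippocampal RNA was taken 72 h later. One litter gave no more than one pup to each treatment and treatments were balanced within litters, so the groups share litters. The labels do not name each animal's litter, and the model has no litter term. No group carried a genetic change. One VEH animal carries the label excluded and was not compared. The groups then held 13 (VEH), 14 (PB) and 14 (LEV) animals, with one library from each. Because the tissue is bulk hippocampus, fewer cells of a type and less RNA per cell cannot be told apart.

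Neuropeptides are cut from larger precursor proteins, stored in dense-core vesicles and released in the hippocampus by GABAergic interneurons among other neurons, and they act on G protein-coupled receptors. Somatostatin, neuropeptide Y and opioid receptors couple to inhibitory G proteins, which lower cyclic AMP, open inwardly rectifying potassium channels and reduce transmitter release. Vipr1 couples to the stimulatory G protein and raises cyclic AMP. Gpr83 has been described as a receptor for PEN, a peptide cut from the proSAAS precursor that the gene Pcsk1n encodes.

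The deposited values are estimated counts per RefSeq transcript, with totals of 9499492 to 14488134 per animal. They were scaled to a common library size and are given below as normalized counts. The sample codes take one form for animals 1 to 6 of each group and another for animals 7 to 14, called here the first and the second series, and the series entered the model as a batch. A transcript was called when the adjusted p value of edgeR's quasi-likelihood test (Benjamini-Hochberg over all 13062 tested transcripts) was under 0.05 and the log2 fold change was at least 0.32 in size, called the fold limit below. Of the 19 member transcripts, 11 passed the filter on low counts, and each of the 10 genes had at least one of them. The 8 that did not pass were all transcripts of Oprm1. Levels are compared between groups and not between genes, since transcript lengths were not used.

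In PB animals, 1 of the 11 tested member transcripts, that of Gpr83, was called against VEH, where 0.605% of all tested transcripts were called (79 of 13062, 45 higher and 34 lower). By the adjusted p alone 704 transcripts passed, 252 higher and 452 lower. The call of Gpr83 is not independent evidence, because the paper's discussion already names Gpr83 among its findings in these animals. In LEV animals no member was called against VEH and neither was any other transcript (0% of 13062), although 763 had an unadjusted p under 0.05, 1 of them a member transcript, and DESeq2 called 5 transcripts, none of them a member. In the first series alone 170 transcripts were called in LEV against VEH, 20 higher and 150 lower, and in the second 6. Between PB and LEV, 0 of the 11 member transcripts were called, against 0.582% of all (76 transcripts). Counts summed per gene gave the same number of member calls, 1, 0 and 0 of 10 genes, where 0.674%, 0% and 0.608% of 12165 gene symbols were called. The median log2 fold change of the 11 member transcripts was -0.02 in PB against VEH, -0.01 in LEV against VEH and -0.03 in PB against LEV, beside medians of 0.00 for all tested transcripts in each comparison. The comparisons of PB and LEV with VEH share the VEH animals.

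Gpr83 (NM_080411, rn6 chromosome 8, positions 13365583 to 13376072) was the member that changed. Its normalized count ranged from 186 to 336 in VEH animals (median 297, mean 285 ± 40.4, SD, n = 13), from 171 to 304 in PB animals (median 223, mean 221 ± 33.6, n = 14) and from 196 to 291 in LEV animals (median 261, mean 251 ± 31.5, n = 14). PB animals were the lowest, LEV animals lay between, and the ranges of the groups overlapped. Of the VEH animals 5 lay above all PB animals, and of the PB animals 3 lay below all VEH animals. VEH animal 9 (186) set the low end of its group, while the next lowest VEH animal had 257, and 13 of 14 PB animals were below that value.

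**Figure D1:**
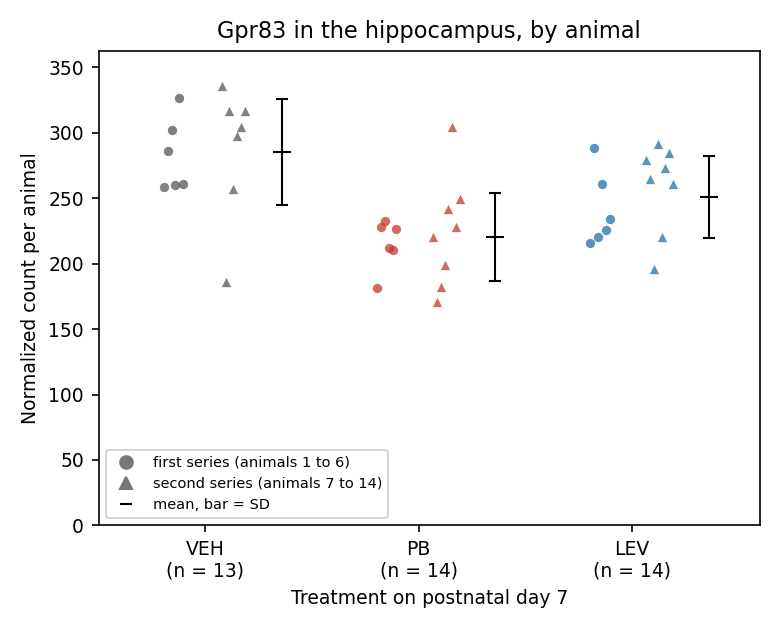
Normalized count of Gpr83 (y axis, from 0) in each VEH, PB and LEV animal, with circles for the first series, triangles for the second and bars for the group mean ± SD. Of the PB animals 13 of 14 sit under every VEH animal except VEH animal 9. The means are 221 in PB, 285 in VEH and 251 in LEV animals. The ranges overlap, with 5 of 13 VEH animals above all PB animals and 3 of 14 PB animals below all VEH animals.

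Relative to VEH, Gpr83 fell by 22.8% after PB, a log2 fold change of -0.37 (SE 0.08, 95% interval -0.53 to -0.22, edgeR adjusted p = 0.00360). In 13 of 14 PB animals it was below the VEH mean of their own series. In the first series the 6 PB animals (182 to 233, median 219) and the 6 VEH animals (259 to 327, median 274) did not overlap. The share of all tested transcripts separated in this way was not counted. In the second series the 8 PB animals (171 to 304, median 224) overlapped with the 7 VEH animals (186 to 336, median 305) for Gpr83. The log2 difference was -0.39 in the first series and -0.36 in the second, and the interaction of series and treatment did not reach the threshold (edgeR unadjusted p = 0.829, adjusted p = 0.963). In a fit of the second series alone the log2 fold change was -0.36 and the adjusted p was 0.0905, so that the call was lost there, while the first series alone kept it (-0.39, adjusted p = 0.0408). The call was kept in each fit that left out one animal, with log2 fold changes between -0.42 (without VEH 9) and -0.35 (without PB 8) and adjusted p values up to 0.0071.

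After LEV, Gpr83 was lower than in VEH animals by a log2 value of -0.19 (SE 0.08, 95% interval -0.34 to -0.03), and 12 of the 14 lay under their own series' VEH mean. This difference did not pass the correction (edgeR unadjusted p = 0.0184, adjusted p = 0.803). The direct comparison of PB with LEV gave the same size, -0.19 (SE 0.08, 95% interval -0.34 to -0.03, adjusted p = 0.153), and 13 of the 14 PB animals lay under their own series' LEV mean. In the order PB, LEV, VEH, neighbouring groups did not differ past the threshold, and PB differed from VEH.

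None of the somatostatin receptors passed the test in PB or LEV animals. Sstr1 (chromosome 6, positions 79254339 to 79258612) had between 591 and 1243 normalized counts in VEH (median 1002, mean 961 ± 175), between 689 and 1207 in PB (median 1090, mean 1031 ± 170) and between 841 and 1362 in LEV animals (median 1020, mean 1036 ± 175). The ranges overlapped almost completely, and both drugs had a log2 fold change of 0.11 against VEH, with 95% intervals of -0.08 to 0.29 for PB and -0.08 to 0.30 for LEV. Sstr2 (chromosome 10, positions 102136283 to 102143443) averaged 354 ± 62.3 after vehicle, 356 ± 43.9 after PB and 371 ± 56.5 after LEV. Its 95% interval was -0.15 to 0.18 for PB and -0.09 to 0.23 for LEV. The lowest Sstr2 value of all 41 animals, 221, was that of LEV animal 8, whose group median was 381.

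Sstr3 (chromosome 7, positions 119760884 to 119768083), a receptor known for its place in neuronal primary cilia, ranged from 357 to 462 in VEH (median 403), from 299 to 443 in PB (median 372) and from 317 to 441 in LEV animals (median 394). PB animals tended to the lower end, 5 of 14 lying under every VEH animal, but the log2 fold change of -0.10 (SE 0.06, 95% interval -0.21 to 0.01) did not pass the test (edgeR unadjusted p = 0.0714, adjusted p = 0.301). After LEV its log2 fold change was -0.03 (95% interval -0.14 to 0.08). Sstr4 (chromosome 3, positions 142739781 to 142741645) had means of 413 ± 55.3, 407 ± 43.7 and 414 ± 76.4 in VEH, PB and LEV animals. The groups overlapped, and the 95% intervals against VEH were -0.18 to 0.14 for PB and -0.16 to 0.16 for LEV. Between PB and LEV the log2 differences of the 4 receptors ran from -0.07 for Sstr3 to 0.00 for Sstr1. Intervals of Sstr1, Sstr2, Sstr3 and Sstr4 stayed inside the fold limit in all 3 comparisons.

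**Figure D2:**
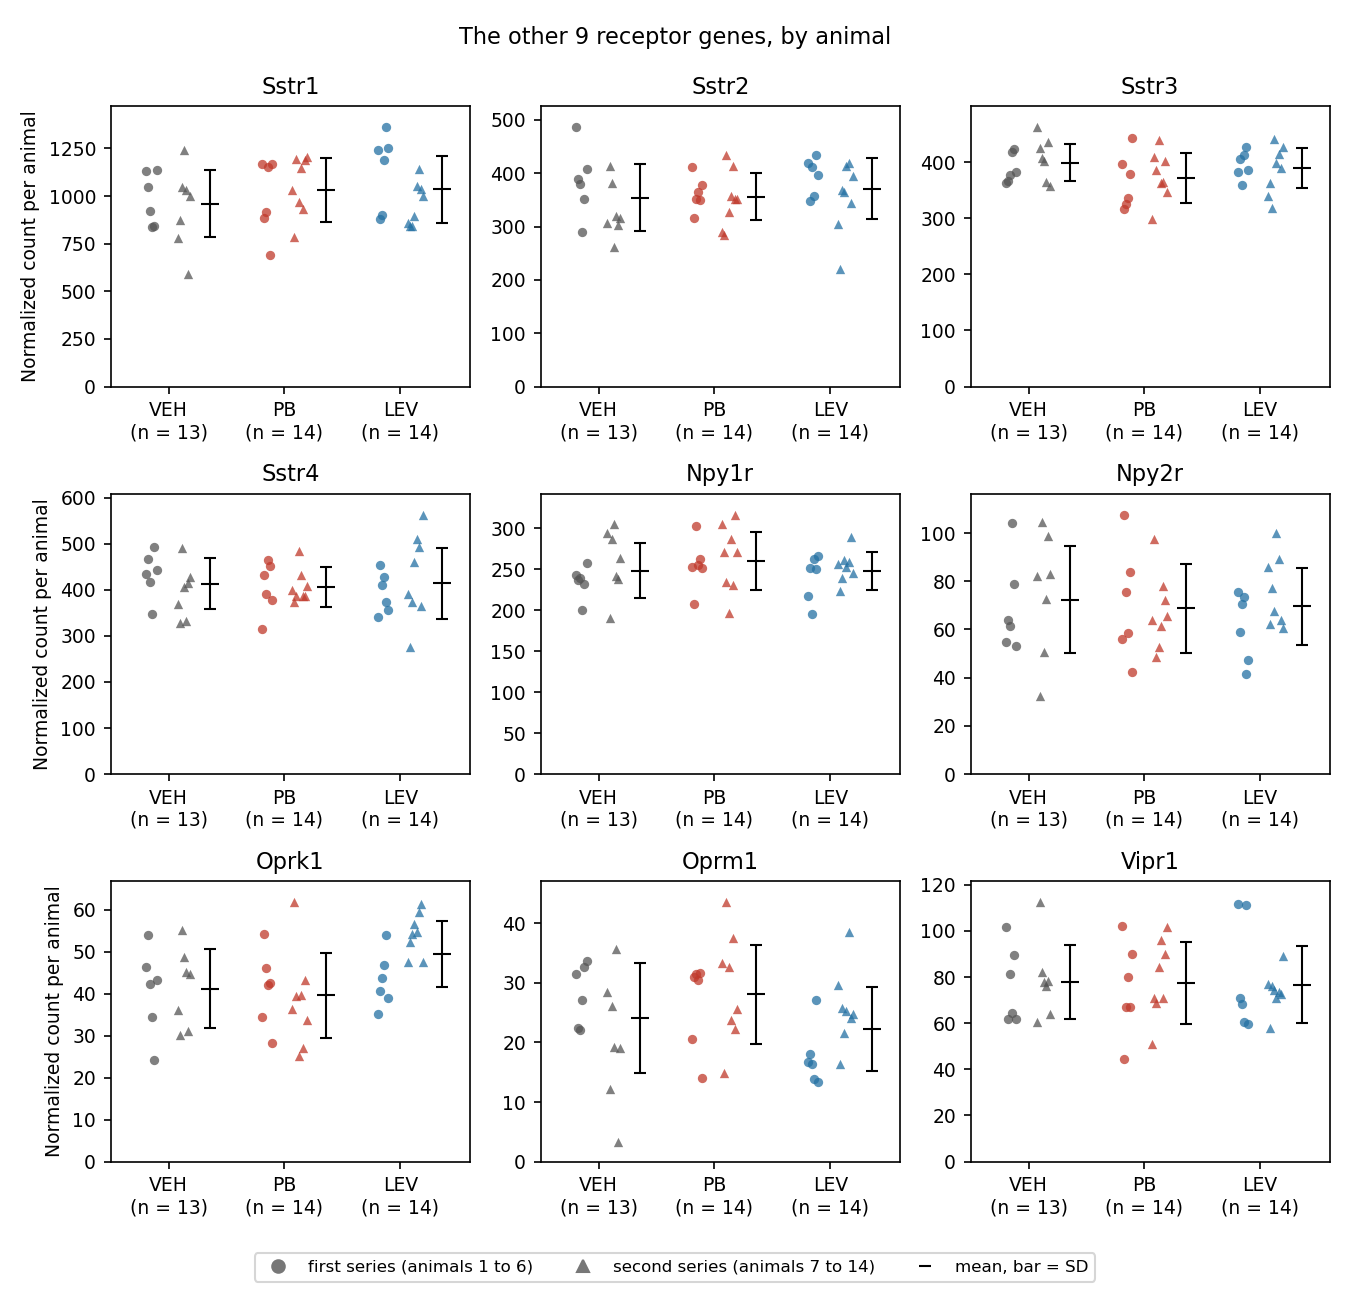
Normalized counts (y axes, each from 0) of the other 9 receptor genes in each VEH, PB and LEV animal, summed over transcripts for Oprk1 and Oprm1, with circles for the first series, triangles for the second and bars for the mean ± SD. The groups overlap in every panel. Oprk1 in LEV animals of the second series (47.5 to 61.5) and the single VEH animal with 3.22 counts of Oprm1 stand out.

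For neuropeptide Y, Npy1r (chromosome 16, positions 24779480 to 24788457), mostly a postsynaptic receptor, ranged from 190 to 305 in VEH (median 241), from 197 to 317 in PB (median 259) and from 196 to 290 in LEV animals (median 253). Its log2 fold change was 0.07 (95% interval -0.07 to 0.20) after PB and -0.01 (95% interval -0.14 to 0.13) after LEV, and neither passed the test. For PB against LEV the Npy1r value was 0.07 (95% interval -0.06 to 0.20). The spread of Npy2r (chromosome 2, positions 181530832 to 181531979), the presynaptic receptor that limits glutamate release, was wider. It ranged from 32.3 to 105 in VEH, from 42.3 to 108 in PB and from 41.6 to 100.2 in LEV animals, and the 95% intervals against VEH, -0.37 to 0.22 for PB and -0.36 to 0.23 for LEV, reached past the fold limit. Raw counts of Npy2r were 29 to 115 per animal, and its coefficient of variation within a group was 22.8% to 30.8%.

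Among opioid receptors, Oprk1 (chromosome 5, positions 13742656 to 13760461), the receptor of dynorphin, has 2 listed transcripts that carry identical values in every animal, so their counts were summed. The sum ranged from 24.3 to 55.3 in VEH (median 43.4, mean 41.2 ± 9.41), from 25.3 to 61.9 in PB (median 39.6, mean 39.6 ± 10.2) and from 35.3 to 61.5 in LEV animals (median 50.0, mean 49.6 ± 7.89). LEV animals lay highest within overlapping ranges, 11 of 14 above the VEH mean of their series. The log2 fold change of LEV against VEH was 0.26 (SE 0.12, 95% interval 0.01 to 0.50) and did not pass the correction (edgeR unadjusted p = 0.0384, adjusted p = 0.810). PB was lower than LEV by a log2 value of -0.32 (SE 0.12, 95% interval -0.56 to -0.08, unadjusted p = 0.0107, adjusted p = 0.108), in 11 of 14 animals, and against VEH the PB value was -0.06 (95% interval -0.31 to 0.19). The LEV difference was 0.10 in the first series and 0.37 in the second, and these were not shown to differ (interaction unadjusted p = 0.263, adjusted p = 0.661).

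Oprm1 (chromosome 1, positions 43454803 to 43528438), the receptor of enkephalins and endorphin, is spread over 9 transcripts among which the authors' counting divides the reads. For NM_013071, the one of the 9 that was tested, estimated counts ran from 0.335 to 38.7 per animal, and the 95% interval of PB against VEH was -0.77 to 0.85. The sum over the 9 was steadier, averaging 24.1 ± 9.21 after vehicle, 28.1 ± 8.32 after PB and 22.2 ± 7.04 after LEV. Ranges overlapped, from 3.22 to 35.7, 14.1 to 43.6 and 13.4 to 38.5, and the log2 fold change was 0.20 (95% interval -0.19 to 0.60) for PB and -0.14 (95% interval -0.54 to 0.26) for LEV. The LEV difference in the sum was -0.69 in the first series, where 5 of 6 LEV animals had 13.4 to 18.01 counts and the VEH animals 22.1 to 33.7, and 0.32 in the second. This interaction had an unadjusted p of 0.0112 and did not pass the correction over all genes (edgeR adjusted p = 0.216).

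Vipr1 (chromosome 8, positions 130283453 to 130313432) had group means within a few percent of each other, at 77.9 ± 16.2 in VEH (range 60.7 to 113), 77.5 ± 17.7 in PB (44.6 to 102) and 76.8 ± 16.8 in LEV animals (57.8 to 112). Its log2 fold change was -0.01 (95% interval -0.25 to 0.23) after PB and -0.02 (95% interval -0.26 to 0.22) after LEV. The difference of PB from LEV was 0.01 (95% interval -0.22 to 0.25).

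**Figure D3:**
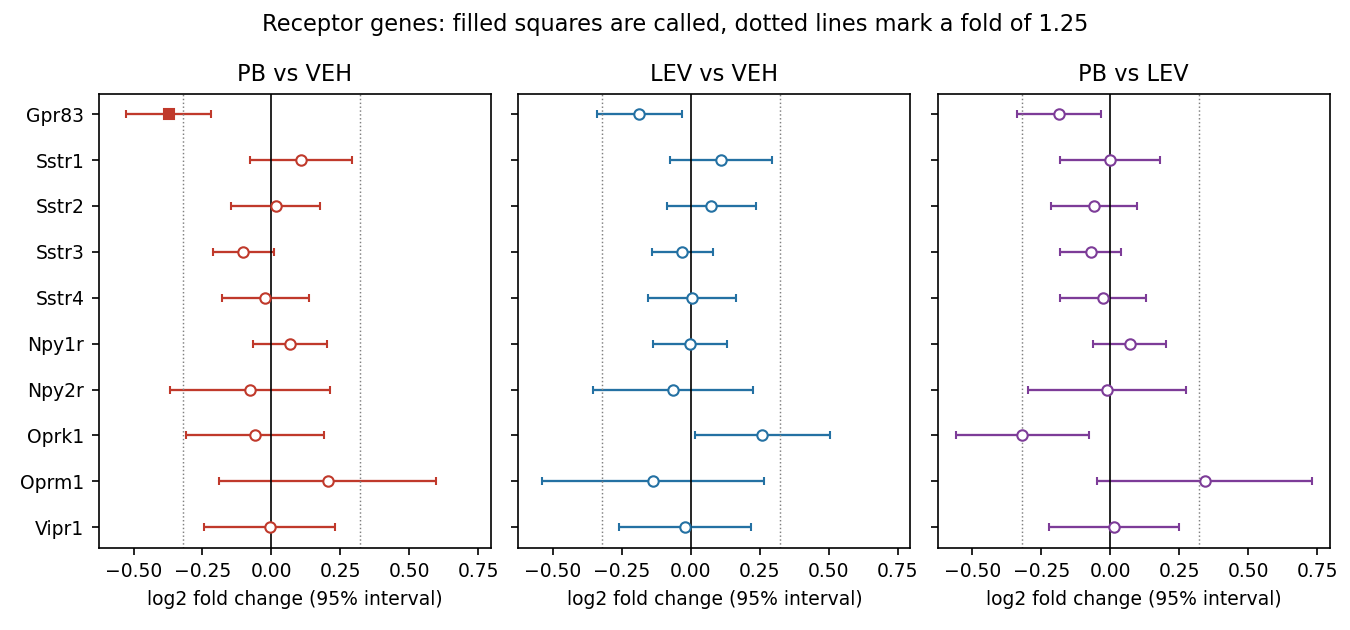
Log2 fold change (x axis) with its 95% interval for each receptor gene (y axis) in PB against VEH, LEV against VEH and PB against LEV, from counts summed per gene. The filled square marks the one called value, Gpr83 in PB against VEH, and open circles mark values that were not called. Intervals lie within the dotted lines, which mark the fold limit, for 7 genes in PB against VEH, 6 in LEV against VEH and 7 in PB against LEV.

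The receptors also differed in how widely the counts within a group varied, where counting error was not separated from variation between animals. The coefficient of variation within VEH, PB and LEV animals was 8.28%, 11.9% and 9.11% for Sstr3, 14.2%, 15.2% and 12.5% for Gpr83 and 18.2%, 16.5% and 16.9% for Sstr1. It was 22.8%, 25.7% and 15.9% for Oprk1 and 38.2%, 29.6% and 31.7% for Oprm1. Across the 10 genes the 95% interval lay wholly inside the fold limit for 7 in PB against VEH, while those of Gpr83, Npy2r and Oprm1 lay only partly inside. For LEV against VEH it did so for 6, and Oprk1 joined these 3. Between PB and LEV it did so for 7, while those of Gpr83, Oprk1 and Oprm1 lay only partly inside. Tests of the series-by-treatment interaction called 0 of the 11 member transcripts for PB, where 0.0689% of all were called (9 of 13062, adjusted p alone), and 0 for LEV, where 0.842% were (110). At an unadjusted p under 0.05 no member transcript passed either interaction test.

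Some animals stood at the end of their group for several receptors. VEH animal 9 had the lowest value of the 13 VEH animals for Gpr83, Sstr4, Npy1r and Npy2r and the highest for Vipr1. It also had the lowest summed level of the 16 GABA neuron markers in that group (9653, group median 12165). LEV animal 8 was the lowest of its group for Sstr1, Sstr2, Sstr4 and Vipr1. In that animal the 7 choroid plexus markers summed to 60882, the highest of the LEV group (median 21150), and the 10 principal neuron markers to 28545, the lowest. The part of these tissue levels in the receptor values of the animals was not tested.

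The transcripts whose levels followed Gpr83 most closely over the 41 animals, after series and treatment had been fitted out of log2 CPM, were Dgkg (a diacylglycerol kinase, Pearson r = 0.664), Cnr1 (the cannabinoid receptor of hippocampal terminals, r = 0.644), Rnf128 (r = 0.640), Unc5c (a netrin receptor, r = 0.617) and Stk32a (r = 0.614). These values describe the 5 highest of 13061 transcripts in the same libraries. Between Gpr83 and the other member transcripts, r ranged from -0.248 for Vipr1 to 0.347 for Npy1r. None of the 5 was called in PB against VEH, with log2 fold changes from -0.25 for Stk32a to -0.05 for Unc5c and edgeR adjusted p values from 0.304 to 0.711.

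Of the peptide precursors that supply these receptors, 11 genes were listed, 10 were in the table and 9 were tested, on 10 transcripts. Sst and Pdyn fell after PB, so that 2 of 10 transcripts were called lower and 0 higher (median log2 fold change -0.14, beside 0.00 for all transcripts). Sst, the somatostatin precursor, had 1357 to 2652 normalized counts in VEH (median 2236), 916 to 2338 in PB (median 1484) and 1368 to 3023 in LEV animals (median 2011). Every PB animal lay under the VEH mean of its series, and 5 of 14 lay under all VEH animals. Its log2 fold change was -0.38 against VEH (SE 0.07, edgeR adjusted p = 0.00183) and -0.46 against LEV (SE 0.07, adjusted p = 0.000233).

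Pdyn, the precursor of dynorphin, ranged from 178 to 295 in VEH (median 242), from 103 to 237 in PB (median 182) and from 183 to 272 in LEV animals (median 222). Here 7 of 14 PB animals lay under all VEH animals. The log2 fold change was -0.45 against VEH (SE 0.09, edgeR adjusted p = 0.00383) and -0.34 against LEV (SE 0.09, adjusted p = 0.0280). The receptors of these peptides, Sstr1, Sstr2, Sstr3, Sstr4 and Oprk1, were not called in any of the 3 comparisons.

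**Figure D4:**
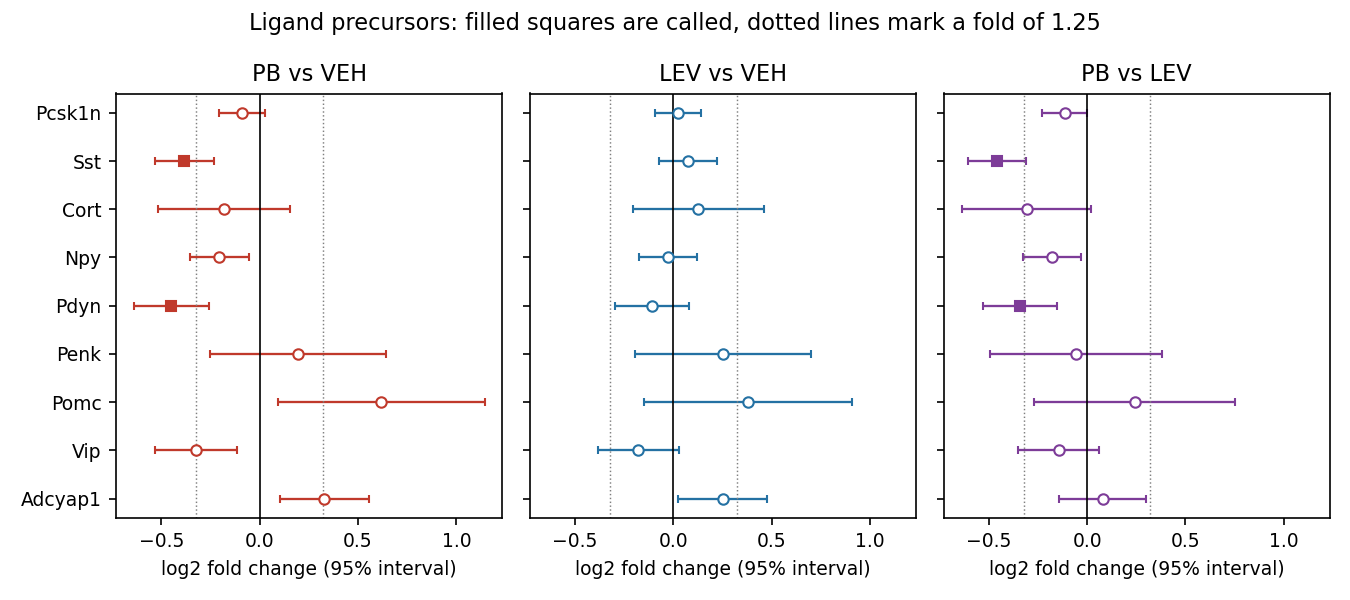
Log2 fold change (x axis) with its 95% interval for the 9 tested peptide precursors (y axis) in the 3 comparisons, first listed transcript of Pcsk1n. Filled squares mark called values, which are Sst and Pdyn in PB against VEH (-0.38 and -0.45) and in PB against LEV (-0.46 and -0.34). Dotted lines mark the fold limit of 0.3219 on the log2 scale.

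The remaining precursors did not pass the test at the transcript level. Pcsk1n, the proSAAS gene, is listed on 2 transcripts with log2 fold changes of -0.09 each after PB (SE 0.06) and 0.02 each after LEV. Npy had a value of -0.20 after PB (SE 0.07, edgeR adjusted p = 0.0961) and Vip one of -0.32 (SE 0.10, adjusted p = 0.0519). Of the 14 PB animals, 8 lay under all VEH animals for Npy and 7 for Vip, as many as for Pdyn or more. Above all VEH animals lay 1 PB animal for Npy and 0 for Vip. Adcyap1, the precursor of the peptide PACAP, had a positive value of 0.33 after PB (SE 0.11, adjusted p = 0.0739), with 13 of 14 PB animals above the VEH mean of their series. Cort, Penk and Pomc had values of -0.18 (SE 0.17), 0.19 (SE 0.22) and 0.62 (SE 0.26). After LEV no precursor was called, and the values ran from -0.18 for Vip to 0.38 for Pomc.

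Other neuropeptide receptors were represented by 34 tested genes of 53 listed, on 41 transcripts, and none was called in any of the 3 comparisons. Their median log2 fold change was -0.07 after PB and -0.02 after LEV, beside 0.00 for all transcripts. One transcript of the PACAP receptor Adcyap1r1 (NM_133511) reached an edgeR adjusted p of 0.0489 after PB with a log2 value of 0.22 (SE 0.07), under the fold limit, while another of its transcripts, NM_001270582, had values of -0.15 (SE 0.06) after PB and -0.25 (SE 0.06, adjusted p = 0.188) after LEV. The substance P receptor Tacr1 had a value of -0.31 (SE 0.10, adjusted p = 0.0522) after PB. Between PB and LEV, Mchr1 (-0.28, SE 0.09, adjusted p = 0.0520) and Ntsr1 (0.35, SE 0.15, adjusted p = 0.191), the receptors of melanin-concentrating hormone and neurotensin, had the smallest unadjusted p values.

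Genes through which the receptors signal, comprising G protein subunits, inwardly rectifying potassium channels, arrestins and receptor kinases, were tested for 19 of 21 listed, on 23 transcripts, and none was called. Gnas, the stimulatory G protein to which Vipr1 couples, had an adjusted p under 0.05 after PB with a log2 value of -0.11 (SE 0.03, edgeR adjusted p = 0.0255) and one of -0.15 against LEV (SE 0.03, adjusted p = 0.00336), both under the fold limit. Arrb1, an arrestin, was 0.24 higher in PB than in LEV (SE 0.06, adjusted p = 0.0208) and had a value of -0.20 in LEV against VEH (SE 0.06, adjusted p = 0.620). The potassium channel Kcnj6 had a value of -0.08 after PB (SE 0.04) and the receptor kinase Grk3 one of -0.10 after LEV (SE 0.06).

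Markers of the cell types in the dissection moved with PB as well. The hippocampal neuron markers were present in all animals, with Slc17a7 at 13798 ± 1045 in VEH, and no list had a marker at 0 in all animals. Of 16 GABA neuron markers, 2 were called lower after PB and 0 higher, Pvalb (-0.83, SE 0.22, edgeR adjusted p = 0.0188) and Lamp5 (-0.55, SE 0.15, adjusted p = 0.0190). Slc32a1, the vesicular GABA transporter (-0.27, SE 0.06, adjusted p = 0.00367), and Calb2 (0.32, SE 0.10, adjusted p = 0.0432) passed the adjusted p but lay under the fold limit, Calb2 only just. The list's most abundant gene, Reln, had a value of -0.16 (SE 0.06). The summed level of the 16 markers was 9579 to 12141 in PB (median 10934), 9653 to 13140 in VEH (median 12165) and 10857 to 12523 in LEV animals (median 11906). Of 10 principal neuron markers, on 12 transcripts, 0 were called, while 4 transcripts had an adjusted p under 0.05 with negative values under the fold limit. These were those of Camk2a (-0.26, SE 0.08, adjusted p = 0.0364) and Dkk3 (-0.19, SE 0.05, adjusted p = 0.0188) and both of Fibcd1 (-0.22 and -0.21). Of the 12 values 10 were negative and 2 positive, the highest 0.37, past the fold limit but not called. The sum of the 10 markers was 26135 to 34807 in PB (median 32086), 30891 to 39688 in VEH (median 34503) and 28545 to 37172 in LEV animals (median 33408). The part of these levels in the Gpr83 difference was not tested.

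In the glial and vascular lists after PB, Gfap rose among 6 astrocyte genes (0.32, just past the fold limit, SE 0.06, edgeR adjusted p = 0.00241). Opalin fell among 7 oligodendrocyte genes (-1.39, SE 0.41, adjusted p = 0.0339), and 0 of 6 microglial and 0 of 4 tested endothelial genes were called. By the adjusted p alone 1 astrocyte transcript, that of Gfap, was higher, and 2, of Slc1a3 and Aldoc, were lower. Of the 12 astrocyte transcripts 7 had negative values. The most abundant transcripts of the astrocyte, microglial and endothelial lists, those of Slc1a3, Csf1r and Cldn5, had log2 values of -0.16 (adjusted p = 0.0286, under the fold limit), -0.01 and -0.17 and were not called. Summed levels overlapped between the groups, with medians for VEH, PB and LEV animals of 43522, 41688 and 42009 for astrocytes, 1763, 1782 and 1775 for microglia and 2671, 2369 and 2666 for endothelium. The oligodendrocyte sum was 9833 to 23005 in VEH (median 12900.4), 5724 to 23261 in PB (median 12781) and 11965 to 22937 in LEV animals (median 16222). Of 5 thalamus markers, which can report tissue next to the hippocampus, Tcf7l2 (0.35, SE 0.11, adjusted p = 0.0446) and Prkcd (0.35, SE 0.10, adjusted p = 0.0262) rose, while the most abundant, Slc17a6, had a value of 0.00 (SE 0.05). None of the genes in these lists was called in LEV against VEH. Between PB and LEV the called genes were Pvalb, Lamp5, Gfap and Opalin, in the same directions as against VEH, and the 3 muscle genes named below.

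Choroid plexus markers varied widely between animals, with sums of 67.1 to 53287 in VEH (median 2714), 100.01 to 84526 in PB (median 8267) and 70.4 to 60882 in LEV animals (median 21150). All 7 markers had positive log2 fold changes against VEH after PB (0.49 to 0.88) and after LEV (0.61 to 0.94). Of the 7, 0 were called in any comparison (Ttr after PB 0.88, SE 1.04). With the choroid plexus level as a covariate the log2 fold change of Gpr83 after PB was -0.37 (edgeR adjusted p = 0.00398). Of 7 skeletal muscle markers the 3 that were tested, Acta1, Myh4 and Atp2a1, fell after PB (-0.44, -2.06 and -2.46). The sum over all 7 in the first series was 120 to 160 in PB, 306 to 463 in VEH and 270 to 564 in LEV animals, and in the second it was 73.0 to 140, 127 to 164 and 109 to 170. With that level as a covariate Gpr83 had a value of -0.45 (adjusted p = 0.0154). In the second series alone it had a value of -0.36 and was not called (adjusted p = 0.0905). The part of the muscle level in the Gpr83 difference was not tested further.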

How the data were processed

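The authors trimmed the reads and aligned them to rn6 with STAR 2.7.3a. Partek's E/M module then apportioned the reads to RefSeq transcripts. The deposited values are these expected counts without normalization, and 13.7% of them are not whole. They were rounded here. A second deposited table holds the authors' DESeq2 p values, fold changes and group means and was not used. In R 4.3.3, edgeR 4.0.16 was run with TMM normalization, filterByExpr by treatment and glmQLFTest in one model of the 3 groups with the series of the sample codes as a term, adjusted by Benjamini-Hochberg over all tested transcripts. Normalized counts are rounded counts scaled by effective library sizes (9588079 to 13786159). The test was checked on simulated counts with larger fold changes than that of Gpr83 and no series effect, so changes of that size were not covered. The 13 gene lists, the members among them, were chosen with earlier results of these data known, so their directions are not independent evidence. All members, all tested precursors, called genes of the other lists, those with the 2 smallest p values per comparison (receptors and signalling genes) or the highest count (markers), and the 5 transcripts most like Gpr83 are named, except 1 gene that is not reported here. Sample labels number separate animals. Promoter and protein sequences were not used here. Alternatives included DESeq2 1.42.0, no filter, other batch terms, each series alone, a replicate block, the excluded animal, sums per gene and each animal left out. The covariates of choroid plexus and muscle level were added after seeing the data.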

Additional observations from a re-analysis of the deposited data

Results flagged for a closer look

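The VEH animal labelled as excluded, which no comparison used, had more counts of 2 receptors than any of the 13 VEH animals that were compared. Scaled together with all 42 animals, its Sstr3 level was 467.8 normalized counts, where the 13 VEH animals had 356 to 461.7, and its Sstr4 level was 672, where they had 327 to 492. The same animal lay below all 13 for Npy1r, with 86.9 counts against 190 to 305, and within their range for the other 7 receptor genes, Gpr83 included (303). These are values of a single library with no test. The paper left out a control sample because its average coverage was well above, and its genomic coverage well below, those of the other samples.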

How the results depend on the processing

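The fall of Gpr83 in PB against VEH kept its call in 11 of 12 alternative analyses (log2 -0.45 to -0.36), the exception being the second series alone, and in all 41 fits without one animal. Of 1590 receptor values under alternatives, 1469 kept their direction and side of the threshold, 120 changed sign and 1 lost its call. No value that changed sign was called, and the cause was not tested. Number of transcripts called in LEV against VEH: 5 with DESeq2, 1 without the filter, 5 with a series-by-treatment term, 170 in the first and 6 in the second series alone. In PB against VEH it was 17 and 168 in the first and second series alone, with 0 member transcripts in the second. In PB against LEV it was 24 in the first series, 34 with all 14 VEH animals and 49 with the muscle covariate. Without one animal, PB against VEH gave 52 (without PB 7) to 115 (without PB 5), LEV against VEH 0 to 4 (without VEH 4) and PB against LEV 39 (without PB 7) to 101 (without PB 5).
Log2 fold changes that changed sign follow. They are per transcript, with NM_013071 for Oprm1 (0.04 in PB against VEH in the main fit) and a single transcript for Oprk1. The fits of single series and the fits that left out an animal did not use the sums over transcripts. Without a series term Oprm1 was -0.0060 in PB against VEH. With a series-by-treatment term Sstr4 was -0.0097 in LEV against VEH and Npy2r 0.0155 in PB against LEV. In the first series alone, PB against VEH gave Sstr2 -0.0851, Npy2r 0.0219, Oprk1 0.0510 and Oprm1 -0.2964, LEV against VEH gave Sstr3 0.0324, Sstr4 -0.1320, Npy1r 0.0421 and Vipr1 0.0664, and PB against LEV gave Sstr4 0.0385, Npy2r 0.1962 and Vipr1 -0.1002. In the second, Sstr4 was 0.0433 and Vipr1 0.0104 in PB against VEH, Npy2r 0.0146 in LEV against VEH and Sstr1 0.1423 in PB against LEV. With all 14 VEH animals, Sstr2 was -0.0235 and Vipr1 0.0068 in PB against VEH, and Sstr4 -0.0601 and Npy1r 0.0649 in LEV against VEH. With the choroid plexus covariate, Sstr4 was 0.0141, Oprm1 -0.0442 and Vipr1 0.0031 in PB against VEH, and Sstr1 0.0018 in PB against LEV. With the muscle covariate, Sstr4 was 0.0280, Npy1r -0.0106, Oprm1 -0.0476 and Vipr1 0.0306 in PB against VEH, and Sstr1 0.0816 and Sstr4 0.0196 in PB against LEV.
Fits without one animal were also per transcript. They ranged in PB against VEH from -0.0150 to 0.0529 for Sstr2, -0.0479 to 0.0051 for Sstr4, -0.1041 to 0.2027 for NM_013071 of Oprm1 and -0.0448 to 0.0484 for Vipr1. In LEV against VEH they ranged from -0.0367 to 0.0383 for Sstr4, -0.0358 to 0.0195 for Npy1r and -0.0750 to 0.0344 for Vipr1. In PB against LEV they ranged from -0.0239 to 0.0402 for Sstr1, -0.0619 to 0.0155 for Sstr4, -0.0867 to 0.0329 for Npy2r and -0.0239 to 0.0669 for Vipr1.
The replicate numbers were not shown to pair the animals. Of 40 same-number pairs 10 had r over 0.1 (range -0.332 to 0.329), and 3 of 41 animals correlated best with their own number. Whether animals of the same number share a litter was not settled by these correlations. With the replicate number as a block, 55, 0 and 63 transcripts were called in PB against VEH, LEV against VEH and PB against LEV. Gpr83 was -0.38 (SE 0.06, edgeR adjusted p = 0.0021) in PB against VEH, where the main fit had an SE of 0.08. In PB against VEH, NM_013071 of Oprm1 (-0.1549) and Vipr1 (0.0142) changed sign, and in LEV against VEH Sstr4 (-0.0020) did. Counting error was not separated from variation between animals.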
